A study of Homo sapiens with 6 samples.

Results

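Matrix metalloproteases (MMPs), ADAMs, ADAMTS proteases and their tissue inhibitors (TIMPs) were examined in KPL4, an established cell line of human inflammatory breast cancer. The members were all genes whose platform symbol was an MMP, ADAM or ADAMTS number or TIMP1 to TIMP4, taken from probe sets that carried exactly 1 symbol. For a gene with several probe sets the brightest on average was used. This gave 65 members of 33578 tested genes, made up of 23 MMPs, 21 ADAMs, 18 ADAMTSs and 3 TIMPs. Among them, 3 are annotated in RefSeq as transcribed pseudogenes (MMP23A, ADAM5 and ADAM6). TIMP2 and MMP23B were not members because the probe set that names them also names another gene.

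Expression was measured on Affymetrix arrays with 3 arrays of ERβ knockout cells and 3 arrays of control cells, all KPL4. The knockout was made by CRISPR/Cas9 and targets ESR2, which encodes the nuclear estrogen receptor ERβ. Both groups grew in the same serum medium with insulin and hydrocortisone, and no further treatment is labelled. The labels call the arrays biological replicates but do not say whether they came from separate cultures. Whether the knockout line is 1 clone or pooled cells, and how the control line was made, is not given either. The p-values thus cover only the spread between these 6 samples, and an effect of the knockout and a difference between cell clones or pools cannot be told apart. The 3 arrays per group limit the precision.

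The 4 families are linked by a shared chemistry. MMPs, ADAMs and ADAMTSs are zinc-dependent proteases that are made as inactive precursors. Most MMPs cut proteins of the extracellular matrix, ADAMs sit in the plasma membrane and release the outer part of other membrane proteins (shedding), and ADAMTSs are secreted and act on proteoglycans, procollagens and other matrix proteins. TIMPs bind the active proteases and block them. In breast tumours, much of the MMP content is known to come from stromal cells rather than from the carcinoma cells themselves. A number of ADAMs lack the residues for catalysis. ADAM22 and ADAM23 are among them and act in adhesion.

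Values are log2 signals as the authors deposited them, so a difference of 1 is a 2-fold change. Signals of different probe sets cannot be set against each other as amounts of RNA. A probe set is called bright here where its mean over the 6 arrays exceeded the median of all tested genes, 5.05, and dim otherwise. The table holds no detection call, so whether a dim signal exceeds background is unknown. The targeted gene could not serve as a check of the labels. ESR2 read 3.90, 4.08 and 4.01 in ERβ knockout cells and 3.99, 3.69 and 4.16 in control cells, dim in both, and differed by 0.05 (SE 0.15, limma adjusted p = 0.90). A disrupted gene may still be transcribed. Median signals over all 134748 probe sets lay between 4.08 and 4.11 on the 6 arrays. All 12 epithelial markers were bright and 3 of them rose (CLDN3, KRT19 and ESRP1). That is 25% called, against 14.8% of all bright genes. The 12 markers had a mean log2 signal of 12.94 to 13.02 on the knockout arrays and 12.73 to 12.80 on the control arrays. ERBB2, the gene for the receptor HER2, averaged 14.07 ± 0.07 in knockout cells and 13.70 ± 0.13 in control cells (SD, n = 3 each, limma adjusted p = 0.11). Markers of other cell types had means between 4.84 and 5.46 on knockout arrays and between 4.87 and 5.43 on control arrays. None of the 12 leukocyte or 10 endothelial markers was called by limma, though 3 and 2 of them had an unadjusted p under 0.05. Of all 33578 tested genes, 8.01% were called and 6811 had an unadjusted p under 0.05. Of 11 fibroblast markers only FBLN1, a matrix glycoprotein, rose (difference 0.69, adjusted p = 0.0082). The part of other cell types in the results below was not tested.

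Most members were dim and few differed. Only 20 of the 65 members were bright: 6 MMPs, 9 ADAMs, 2 ADAMTSs and all 3 TIMPs. Across the members, 3 rose and 2 fell in knockout cells (limma, Benjamini-Hochberg adjusted p under 0.05), and 60 were not called. That is 7.69% of the members, against 8.01% of all tested genes (4.81% higher and 3.21% lower), so the share of members called was close to that of all genes. Over all genes 1614 rose and 1077 fell. These counts were 1044 and 758 without knockout array 1, and 1008 and 660 without knockout array 2. All 5 calls came from the 20 bright members, a share of 25%, against 14.8% of all bright genes. None of the 45 dim members was called by limma, and 3 of them had an unadjusted p under 0.05. Of all 16789 dim genes, 1.2% were called and 1483 had an unadjusted p under 0.05. The median difference was 0.02 over the members and 0.02 over all genes. The 3 knockout arrays lay apart from the 3 control arrays in 12 of 65 members (18.5%), against 25.3% of all genes.

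**Figure D1:**
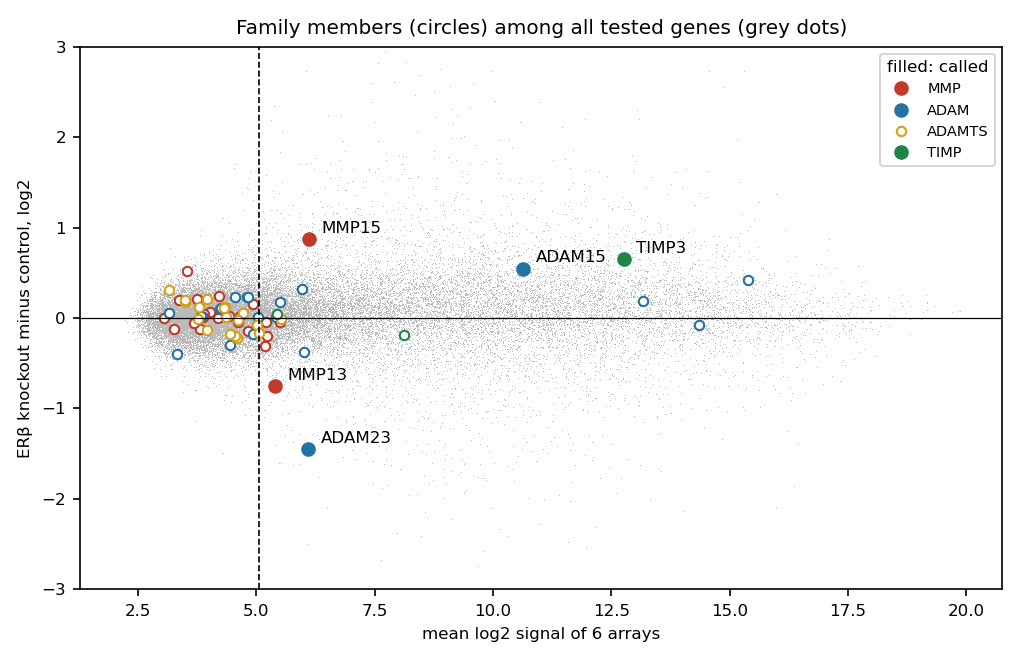
Mean log2 signal over 6 arrays (x axis) against the difference ERβ knockout minus control on the log2 scale (y axis), with members as circles coloured by family, filled where called, and all tested genes within the axis as grey dots. The dashed line marks the median brightness, 5.05. The 5 called members all lie to its right, and 45 members lie to its left.

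**Figure D2:**
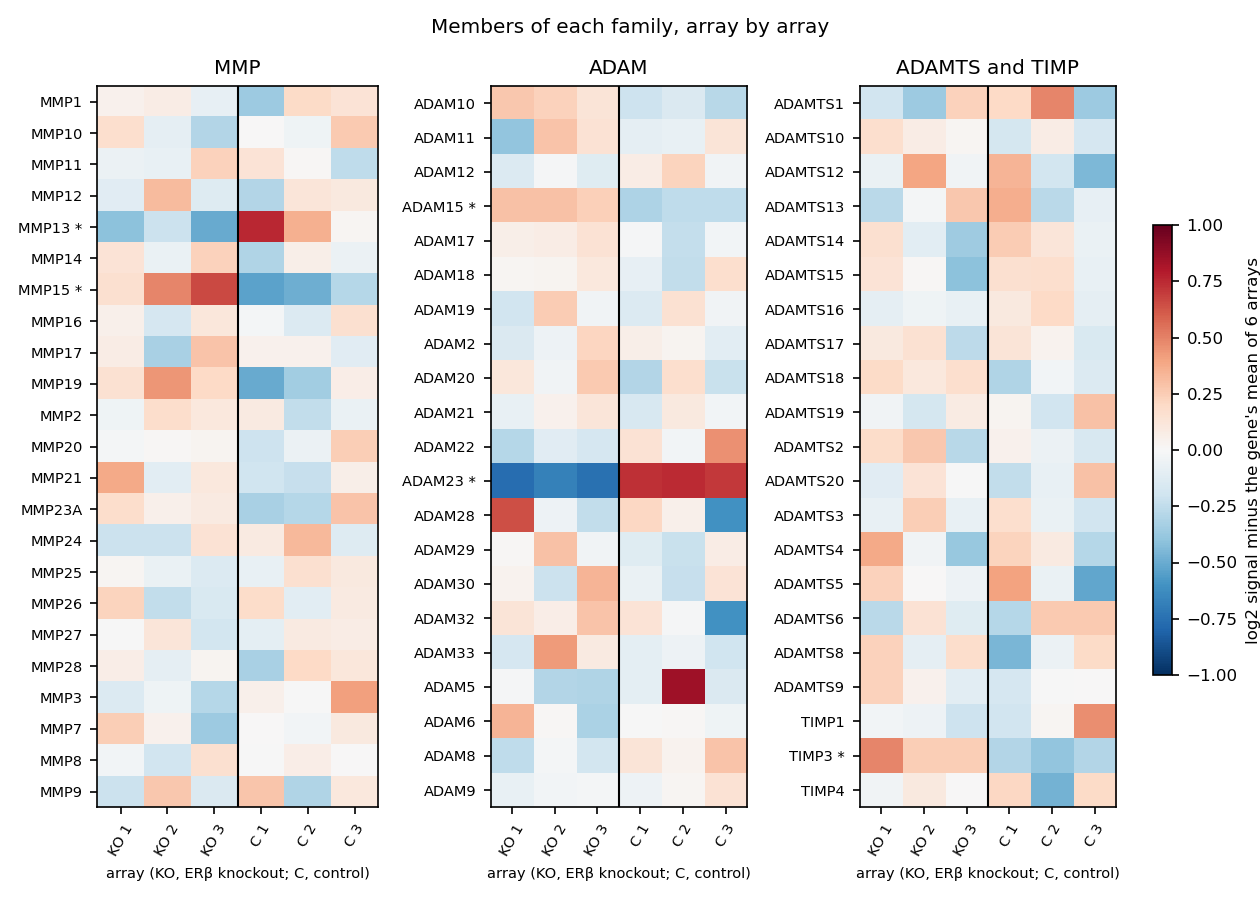
Log2 signal of each of the 65 members on each array minus that gene's mean over the 6 arrays, with the 3 ERβ knockout arrays left of the line and the 3 control arrays right of it. Asterisks mark the 5 called members, whose colours change at the line. The colour scale is limited to differences between -1 and 1.

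Among the MMPs, 1 of 23 rose, 1 fell and 21 were not called. MMP15 (membrane-type 2 MMP), a protease anchored in the plasma membrane, had log2 signals of 6.27, 6.60 and 6.76 in knockout cells and 5.57, 5.62 and 5.82 in control cells. All knockout arrays lay above all control arrays. The difference was 0.87 (SE 0.15), or 1.83-fold, with a limma adjusted p of 0.0046. MMP13, a collagenase that cuts fibrillar collagens, fell. It had 4.99, 5.18 and 4.90 in knockout cells, against 6.16, 5.76 and 5.42 in control cells. The groups did not overlap, but the control arrays spread over a range wider than that of the knockout arrays, with control array 3 nearest to the knockout values. The knockout mean of 5.02 was dim, so a fold of the signals may understate the difference in RNA. The MMP13 signal was 1.69-fold lower (difference -0.75, SE 0.18, 95% interval -1.15 to -0.35, limma adjusted p = 0.027). This call was lost without control array 1 (-0.56, adjusted p = 0.087) or 2 (adjusted p = 0.064) and without knockout array 1 (adjusted p = 0.094), 2 (adjusted p = 0.051) or 3 (adjusted p = 0.101). The MMP15 call held in each of these sets of 5 arrays, with adjusted p of 0.0046 to 0.027.

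The gelatinases, MMP14 and MMP1 were not called. MMP2 and MMP9, the gelatinases, which cut denatured collagen and basement membrane collagen, were dim and differed by 0.15 (adjusted p = 0.61) and -0.06 (adjusted p = 0.92). MMP14, a membrane-type protease that activates the precursor of MMP2, differed by 0.20 (adjusted p = 0.50) at a dim 3.47 ± 0.15 in knockout and 3.27 ± 0.18 in control cells (SD, n = 3). MMP1, a collagenase, differed by 0.02 (95% interval -0.33 to 0.38). For these 4 genes the dim signals leave only a bound on any level, and the intervals of the differences lay between -0.45 and 0.52. The other bright MMPs were not called either. MMP24, another membrane-type protease, read 5.02, 5.02 and 5.38 in knockout cells and 5.32, 5.56 and 5.11 in control cells, so the groups overlapped (difference -0.19, adjusted p = 0.58). The gene MMP24OS, which overlaps MMP24 in RefSeq, was called in the other direction (difference 0.58, adjusted p = 0.019). MMP27 had 5.48, 5.61 and 5.31 in knockout and 5.39, 5.58 and 5.56 in control cells (difference -0.04, adjusted p = 0.91). MMP3, a stromelysin, differed by -0.31 with no overlap between the groups (adjusted p = 0.28). MMP7, a matrilysin, differed by -0.05 (adjusted p = 0.92). MMP19 was the dim member nearest to the threshold. It had 3.69, 3.98 and 3.74 in knockout cells and 3.04, 3.19 and 3.60 in control cells (difference 0.52, adjusted p = 0.084), and was called only without control array 3 (0.69, adjusted p = 0.024). By role, 1 of 3 collagenases fell, 1 of 6 membrane-anchored MMPs rose, and 0 of 2 gelatinases, 0 of 3 stromelysins, 0 of 2 matrilysins and 0 of 6 other MMPs were called. At an unadjusted p under 0.05, 1 of the last 13 genes passed, MMP19. Of all 23 MMPs 8.7% were called, close to the 8.01% of all genes. The 17 dim MMPs held no call, and 1.2% of all dim genes were called.

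The ADAMs held the change of largest size among the members. ADAM23, an adhesion protein of neural tissue that lacks protease activity, had log2 signals of 5.34, 5.43 and 5.35 in knockout cells, against 6.83, 6.85 and 6.81 in control cells. The arrays of each group lay close together and the groups were far apart. The difference was -1.45 (SE 0.12, 95% interval -1.71 to -1.20), or 2.74-fold lower, with a limma adjusted p of 2.3e-05. ADAM15, a membrane protease with an integrin-binding disintegrin domain, had 10.93, 10.93 and 10.88 in knockout cells and 10.33, 10.38 and 10.38 in control cells. Every knockout array lay above every control array, by 0.55 on average (SE 0.12), or 1.46-fold (adjusted p = 0.014). The ADAM15 call was lost without control array 1 (adjusted p = 0.056), knockout array 1 (adjusted p = 0.055) or knockout array 2 (adjusted p = 0.065), with differences of 0.53 to 0.54. ADAM23 was called in each set of 5 arrays, with adjusted p of 0.00017 to 0.00037.

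The 2 main sheddases were bright in both groups. ADAM10, which cuts Notch receptors and the amyloid precursor protein, had 15.67, 15.63 and 15.53 in knockout cells and 15.19, 15.25 and 15.12 in control cells. Its groups did not overlap, and the difference of 0.42 (SE 0.12, 95% interval 0.16 to 0.69) just missed the threshold (adjusted p = 0.059). ADAM10 passed with array medians set equal (adjusted p = 0.049), among bright genes alone (adjusted p = 0.022) and under robust moderation with an intensity trend (adjusted p = 0.0015). It was not called in the other 10 alternatives, with adjusted p of 0.058 for the mean of a gene's probe sets, 0.072 after repeated quantile normalization, 0.10 with the replicate number as a block, 0.25 with all probe sets tested, and 0.077 to 0.18 without 1 array. ADAM17, which releases tumour necrosis factor and ligands of the epidermal growth factor receptor, had 13.24, 13.25 and 13.32 in knockout cells and 13.17, 12.94 and 13.15 in control cells. The groups stood close without overlapping, and the difference of 0.18 was not called (adjusted p = 0.48). ADAM9, another active sheddase, averaged 14.31 ± 0.03 in knockout and 14.39 ± 0.10 in control cells (SD, n = 3), with a difference of -0.08 (95% interval -0.35 to 0.19, adjusted p = 0.80). ADAM22, which like ADAM23 lacks protease activity and binds LGI proteins, had 5.73, 5.90 and 5.85 in knockout cells and 6.16, 5.99 and 6.47 in control cells. Its difference of -0.38 was not called (adjusted p = 0.17). The remaining 15 ADAMs had adjusted p of 0.22 or more. For ADAM8, a sheddase of leukocytes, the 2 probe sets pointed in opposite directions, -0.30 and 0.18, both dim and not called.

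None of the 18 ADAMTS genes was called by limma. Of the 18, 16 were dim, and 1.2% of all dim genes were called. ADAMTS18 alone had an unadjusted p under 0.05, with a dim signal that differed by 0.31 (adjusted p = 0.19). Differences in the family ran from -0.22 to 0.31, with 9 above and 9 below 0. The 2 bright ones were ADAMTS17 and ADAMTS6, matrix proteases linked to fibrillin microfibrils. ADAMTS17 read 5.61, 5.67 and 5.26 in knockout cells and 5.65, 5.55 and 5.36 in control cells, which overlapped (difference -0.01, 95% interval -0.34 to 0.32). ADAMTS6 had 4.79, 5.21 and 4.94 in knockout cells, against 4.78, 5.33 and 5.32 in control cells (difference -0.16, adjusted p = 0.69). ADAMTS1, a protease of the proteoglycans aggrecan and versican, was dim and differed by -0.22 with a wide interval of -0.70 to 0.27. ADAMTS19 and ADAMTS3, a procollagen-processing enzyme, were dim too and differed by -0.08 and 0.06.

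Of the inhibitors, TIMP3 rose and TIMP1 and TIMP4 were not called. TIMP3 stays bound to the matrix and blocks ADAM17 and ADAMTSs as well as MMPs. It had log2 signals of 13.24, 13.01 and 13.01 in knockout cells, against 12.47, 12.36 and 12.47 in control cells. All knockout arrays were above all control arrays, and the difference was 0.65 (SE 0.13), or 1.57-fold (adjusted p = 0.0086). The call held in each set of 5 arrays (adjusted p of 0.023 to 0.044). TIMP1, a soluble inhibitor of most MMPs, had 8.09, 8.07 and 7.91 in knockout cells and 7.92, 8.13 and 8.58 in control cells. The knockout values lay within or just below the control range (difference -0.19, 95% interval -0.56 to 0.18, adjusted p = 0.61). TIMP4 had 5.40, 5.53 and 5.44 in knockout cells and 5.64, 4.96 and 5.62 in control cells, with control array 2 well below the other control arrays (difference 0.05, adjusted p = 0.93). Each of these 3 TIMP genes overlaps a synapsin gene in RefSeq. SYN3, which overlaps TIMP3, was dim with 3.70 in knockout and 3.96 in control cells and differed by -0.26 (adjusted p = 0.29), the opposite sign to TIMP3.

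**Figure D3:**
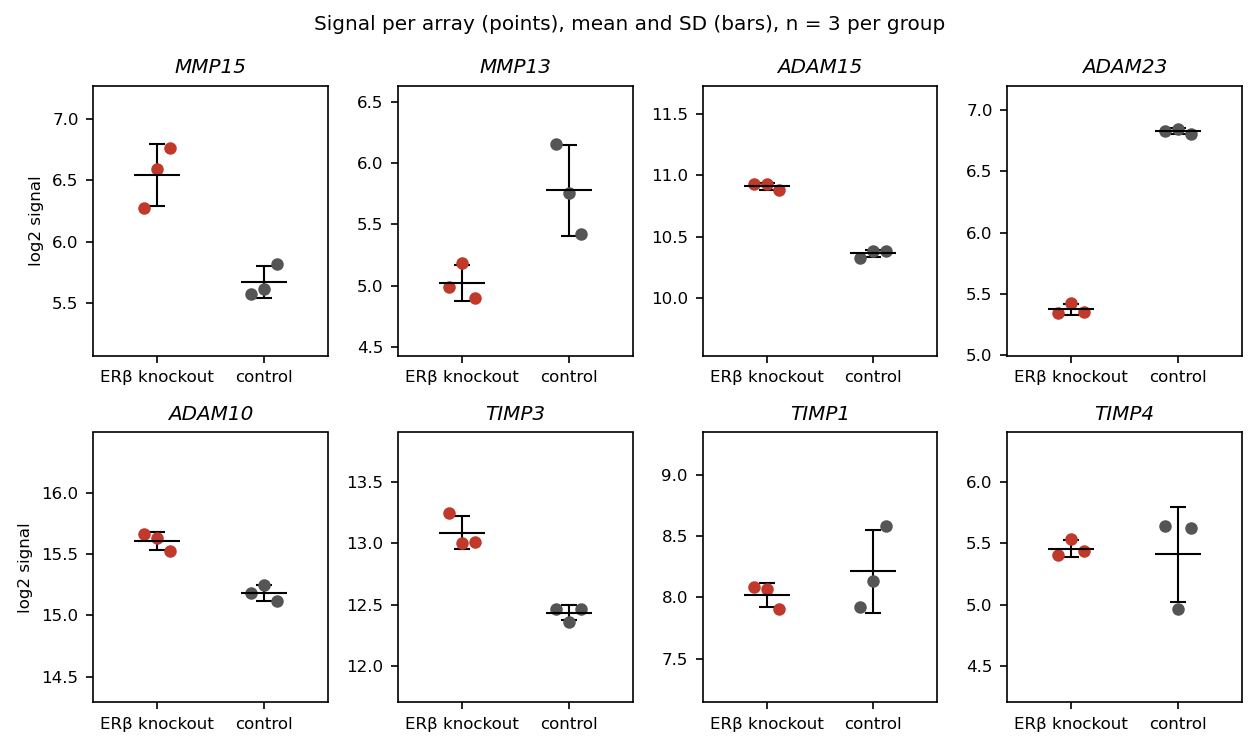
Log2 signal on each ERβ knockout array (left, red) and control array (right, grey) for the 5 called members and for ADAM10, TIMP1 and TIMP4, with the mean and SD of 3 arrays. Every panel spans 2.2 log2 units. The groups do not overlap for the 5 called members and ADAM10, and overlap for TIMP1 and TIMP4.

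**Figure D4:**
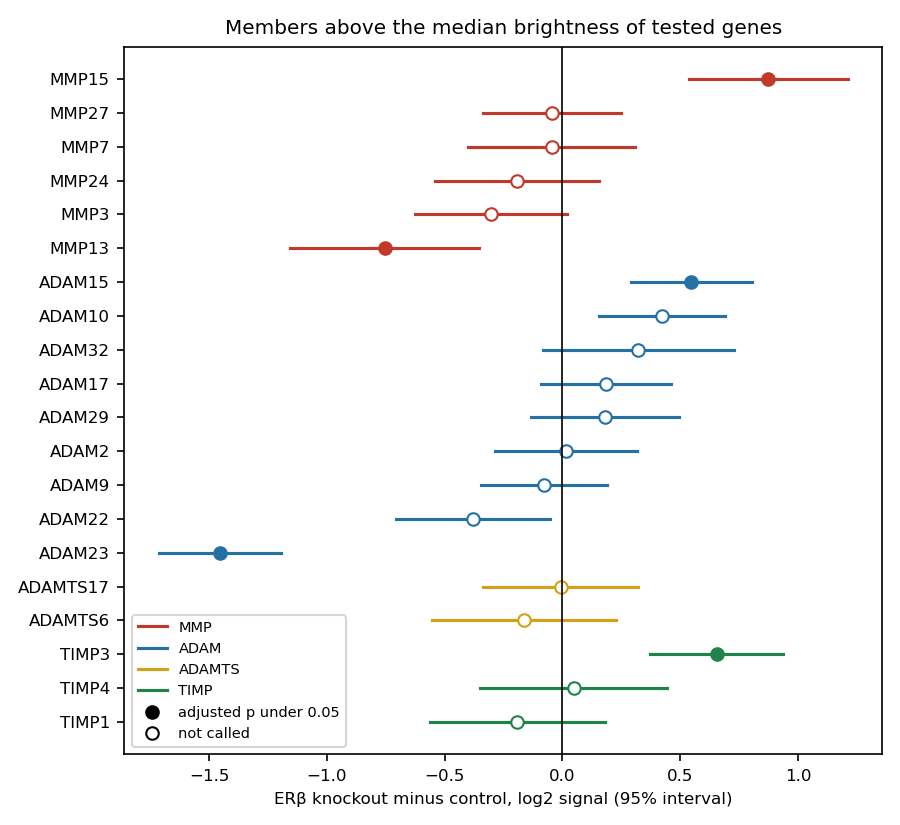
Difference ERβ knockout minus control (log2 signal, x axis) with its 95% interval from limma for the 20 bright members, grouped by family and filled where called. The intervals of ADAM10 and ADAM22 leave out 0 although neither gene was called after adjustment over all genes. Intervals of the other uncalled members cover 0.

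The uncalled members bound what these arrays could show. Over all members the 95% interval of a difference reached 0.34 to either side in the median, and over the 15 uncalled bright members the intervals lay between -0.71 and 0.73. The called members of highest adjusted p were MMP13 (limma adjusted p = 0.027) and ADAM15 (0.014). The uncalled members of lowest adjusted p were ADAM10 (0.059), MMP19 (0.084) and ADAM22 (0.17).

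The called members were then set beside the genes that lie next to them on the chromosome. MMP13 ends a run of 9 MMP genes on chromosome 11, in the order MMP7, MMP20, MMP27, MMP8, MMP10, MMP1, MMP3, MMP12 and MMP13. The other 8 genes of the run had differences of -0.31 to 0.05 with a median of -0.04, and none was called by limma (0 also had an unadjusted p under 0.05). For each called member the 10 nearest bright protein-coding genes on either side were taken. Around ADAM23 on chromosome 2, 16 of 20 neighbours were lower in knockout cells, 6 fell and 1 rose, and their median difference was -0.35, against 0.07 over 11906 bright protein-coding genes. Of those 11906 genes, 808 fell and 1315 rose. MAP2, a microtubule protein, fell by 2.04 (adjusted p = 4.1e-06), and the cell motility adaptor RAPH1 rose by 1.02 (adjusted p = 0.0012). The genes next to ADAM23, ZDBF2 and MDH1B, were not called (0.31 and -0.53). The ADAM23 difference minus the median of its neighbours was -1.10, and the part of a shift shared with the neighbours was not tested. Neighbours of the other called members had medians nearer to that of all bright genes. They were 0.06 for MMP15 on chromosome 16, -0.03 for MMP13, 0.20 for ADAM15 on chromosome 1 and 0.14 for TIMP3 on chromosome 22. In the same order, 1, 1, 3 and 3 of 20 neighbours were called, against 2123 of the 11906 bright protein-coding genes.

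**Figure D5:**
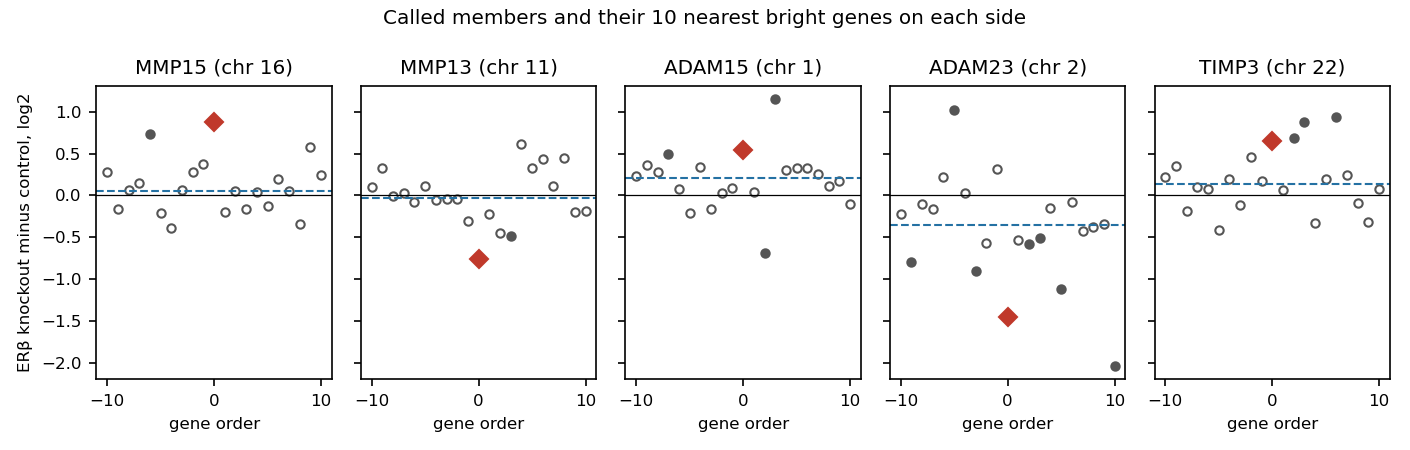
Difference ERβ knockout minus control (log2, y axis) of each called member (red diamond at 0) and of its 10 nearest bright protein-coding genes on each side in RefSeq gene order (circles, filled where called). The dashed line is the neighbours' median, which is -0.35 for ADAM23 and between -0.03 and 0.20 for the other 4.

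Promoter sequences were read for the members that changed, to show the DNA just upstream of their start sites. RefSeq windows (GRCh38.p14) were found for 37 of the 65 members, among them 4 of the 5 called ones. The 250 bases before the start site are printed 5′ to 3′ for these 4. Capitals mark GC boxes (GGGCGG or its reverse complement CCGCCC), a motif of Sp1-type factors. They also mark single arms of an estrogen response element (GGTCA or its reverse complement TGACC).
MMP15 (chr16:58025504-58025753, plus strand): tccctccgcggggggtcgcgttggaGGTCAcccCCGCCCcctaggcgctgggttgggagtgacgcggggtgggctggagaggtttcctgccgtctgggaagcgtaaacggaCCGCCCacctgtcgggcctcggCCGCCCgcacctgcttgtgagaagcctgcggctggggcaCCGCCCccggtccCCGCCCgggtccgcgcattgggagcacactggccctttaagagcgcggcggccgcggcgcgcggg
TIMP3 (chr22:32801455-32801704, plus strand): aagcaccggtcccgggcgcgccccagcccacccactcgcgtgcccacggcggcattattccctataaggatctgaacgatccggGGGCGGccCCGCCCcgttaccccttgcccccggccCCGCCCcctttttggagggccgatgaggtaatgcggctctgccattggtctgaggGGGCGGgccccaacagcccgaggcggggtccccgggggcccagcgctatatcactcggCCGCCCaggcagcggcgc
ADAM15 (chr1:155051066-155051315, plus strand): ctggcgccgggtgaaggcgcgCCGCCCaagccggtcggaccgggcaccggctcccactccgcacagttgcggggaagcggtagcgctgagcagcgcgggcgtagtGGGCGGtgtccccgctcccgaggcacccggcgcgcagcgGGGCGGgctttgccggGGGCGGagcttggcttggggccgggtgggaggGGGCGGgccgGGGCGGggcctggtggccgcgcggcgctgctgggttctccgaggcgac
ADAM23 (chr2:206443282-206443531, plus strand): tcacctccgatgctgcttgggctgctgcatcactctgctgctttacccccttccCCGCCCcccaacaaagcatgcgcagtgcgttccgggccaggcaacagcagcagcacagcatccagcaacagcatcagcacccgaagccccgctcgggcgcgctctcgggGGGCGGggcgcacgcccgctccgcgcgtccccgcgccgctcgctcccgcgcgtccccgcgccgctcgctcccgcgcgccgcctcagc

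All 4 windows held GC boxes, 5 in MMP15, 5 in TIMP3, 6 in ADAM15 and 2 in ADAM23, so the motif was found in genes that rose and in the gene that fell. Over the full windows, which add 50 bases after the start, 64.9% of the 37 members and 44.6% of 27305 promoters had a GC box on either strand. A single arm was found in MMP15 alone among the 4, and in 29.7% of the members against 37.7% of all promoters. The full estrogen response element, GGTCA and TGACC with 3 bases between them, was in 0 of 37 members and in 0.0659% of all promoters. These matches describe letters in a short window and say nothing of binding.

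AP-1 sites are known elements of several MMP promoters. They were searched as the motif TGANTCA on either strand, where N is any base. In the stretches printed below, N is G in MMP7 and A in MMP10 and MMP20. This motif was in 4 of 37 members (10.8%) and in 7.76% of all promoters. No window was found for MMP1, MMP3, MMP9, MMP12 or MMP13, so the motif could not be looked for in them. Of these 4, MMP7, MMP10 and MMP20 belong to the chromosome 11 run, and the motif with 20 bases on each side is printed for them because it stands at the same distance, 67 bases before the start, in MMP7 and MMP10. Capitals mark the motif.
MMP7 (chr11:102530788-102530834, minus strand): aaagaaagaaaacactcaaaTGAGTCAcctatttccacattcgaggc
MMP10 (chr11:102780669-102780715, minus strand): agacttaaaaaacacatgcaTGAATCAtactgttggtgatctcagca
MMP20 (chr11:102625418-102625464, minus strand): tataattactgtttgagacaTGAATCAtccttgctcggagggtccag

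None of these 3 genes was called, with differences of -0.05 for MMP7, -0.15 for MMP10 and 0.01 for MMP20. Genes for the AP-1 proteins and other factors known to act on MMP promoters were examined beside them. Of 26 such genes, 2 rose and 4 fell, or 23.1% called, against 8.01% of all genes and 14.8% of bright genes (17 of the 26 were bright). Their median difference was 0.06. JUN, an AP-1 subunit, averaged 5.36 ± 0.28 in knockout and 6.06 ± 0.24 in control cells (SD, n = 3), a difference of -0.71 (adjusted p = 0.030). FOSL1, the AP-1 subunit FRA1, was 1.64-fold lower (difference -0.71, adjusted p = 0.031), with a dim 4.63 in knockout cells and 5.34 in control cells. The Ets factor ETS2 fell by 0.54 (adjusted p = 0.022) and NFKB1, an NF-κB subunit, by 0.60 (adjusted p = 0.042). ETV5, also an Ets factor, rose by 1.11 (adjusted p = 0.0012) and RUNX1 by 0.74 (adjusted p = 0.014). The count of 4 that fell dropped whichever array was left out. It was 0 without control array 1 and 2 without control array 2 or knockout array 2. Without control array 3, knockout array 1 or knockout array 3 it was 1. The 2 that rose became 1 without knockout array 2.

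Genes that activate the proteases or induce them held 7 calls. Of 20 measured, 2 rose, 5 fell and 13 were not called. That is 35% of the list, in which 17 genes were bright, against 8.01% of all genes and 14.8% of all bright genes. The median difference was -0.05, against 0.02 over all genes and 0.06 over bright genes. PLAU and PLAUR, the urokinase plasminogen activator and its receptor, generate plasmin that activates MMP precursors. PLAU averaged 7.90 ± 0.05 in knockout and 8.39 ± 0.15 in control cells, a difference of -0.49 (adjusted p = 0.040), and PLAUR 5.72 ± 0.08 and 6.34 ± 0.19, a difference of -0.62 (adjusted p = 0.018, SD, n = 3). ITGAV, the integrin alpha-V chain, fell by 1.07 (adjusted p = 0.00026), CAV1, caveolin, by 0.90 (adjusted p = 0.00073) and KLK6, a secreted serine protease, by 0.81 (adjusted p = 0.0016). TMPRSS2, a membrane serine protease, rose 2.01-fold (adjusted p = 0.00058) and CD44, the hyaluronan receptor that docks MMPs at the cell surface, rose 1.99-fold (adjusted p = 0.0075). Without control array 1, knockout array 2 or knockout array 3, the count that fell was 3.

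Partners that carry ADAM10 and ADAM17 to the cell surface were also examined. Of 11, 3 rose, 0 fell and 8 were not called. That is 27.3% of the list, in which 9 genes were bright, against 8.01% of all genes and 14.8% of all bright genes. The median difference was 0.21, against 0.02 over all genes and 0.06 over bright genes. TSPAN5 and TSPAN14 are tetraspanins of the group that escorts ADAM10. TSPAN5 averaged 12.57 ± 0.05 in knockout and 11.28 ± 0.33 in control cells (SD, n = 3), a 2.44-fold rise (adjusted p = 0.00059). TSPAN14 averaged 9.20 ± 0.15 in knockout and 8.49 ± 0.04 in control cells, a 1.64-fold rise (adjusted p = 0.0057). PACS2, a sorting protein that acts on ADAM17 traffic, rose 1.46-fold (adjusted p = 0.027). RHBDF2, the gene for an iRhom that matures ADAM17, had an adjusted p of 0.44.

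Among 34 genes whose proteins are shed by ADAMs, 1 rose and 4 fell. The share called, 14.7%, was close to the 14.8% of bright genes, and 27 of the 34 were bright (median difference 0.03). NRG1, an ERBB ligand, averaged 5.44 ± 0.14 in knockout and 7.55 ± 0.21 in control cells, a 4.32-fold fall (adjusted p = 8.7e-06). BTC, betacellulin, fell 2.50-fold (adjusted p = 0.00014), FAS, a death receptor, 1.91-fold (adjusted p = 0.0031) and SDC4, a heparan sulfate proteoglycan, 1.85-fold (adjusted p = 0.0021). The 1 that rose was CD44, counted above. The ADAM targets NOTCH1, APP and CDH1 were not called. Of 22 measured matrix genes, 0 rose and 2 fell, or 9.09% called, against 8.01% of all genes (median difference -0.02). FN1, fibronectin, averaged 13.23 ± 0.18 in knockout and 14.29 ± 0.10 in control cells (adjusted p = 0.00065), and LAMB1, a laminin chain, was 1.62-fold lower (adjusted p = 0.0065). These lists were chosen with earlier results of these arrays known, so their counts are descriptions.

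Other inhibitors and clearance receptors gave 1 rise and 2 falls among 14 measured genes. That is 21.4% called, against 8.01% of all genes and 14.8% of all bright genes. Of the 14, 10 were bright, and the median difference was -0.03. TFPI2, a secreted Kunitz inhibitor of serine proteases, was 9.61-fold higher (adjusted p = 2.3e-07). SERPINE2, a serine protease inhibitor, averaged 7.42 ± 0.19 in knockout and 8.10 ± 0.07 in control cells (SD, n = 3, adjusted p = 0.0097). A2ML1, a broad protease trap of the alpha-2-macroglobulin family, averaged 5.21 ± 0.25 in knockout and 6.09 ± 0.33 in control cells (adjusted p = 0.014). The count of falls was 1 without knockout array 1, and the count of rises was 2 without knockout array 3. With all probe sets tested as separate features 0 fell, and among bright genes alone 3 rose. RECK, a membrane-anchored MMP inhibitor, was not called. Of 15 related metzincins and ADAMTS-like genes, such as BMP1, none was called by limma, and 1 had an unadjusted p under 0.05.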

How the data were processed

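The values used were log2 signals per probe set that the authors deposited for 6 arrays. The submitters' processing notes name RMA and Transcriptome Analysis Console. Background correction, normalization and summarization were thus done before deposit, and the versions and the detection calls are not given in the sources used here. Array medians lay between 4.08 and 4.11. Normalization before deposit can itself bring such medians together, so they cannot show whether bright genes are on a common scale. The median difference was 0.06 over bright genes and 0.0005 over dim genes. Of 134748 probe sets, 35528 carried 1 platform symbol and 1119 carried several, and the rest were unnamed here. The brightest probe set of each of 33578 genes was fitted in limma 3.58.1 (R 4.3.3, lmFit and eBayes, 2 groups of 3 arrays, residual df 4, prior df 6.84). P-values were two-sided and adjusted by Benjamini-Hochberg over these genes, with a threshold of 0.05. Intervals are 95% intervals from the same fit. The script was tested on simulated data. Folds are estimates from the signals. Where the lower group's mean was dim, the fold may understate the difference in RNA.

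Replicate numbers did not pair the samples: deviations from the group means correlated at -0.019, -0.010 and -0.030 between same-numbered arrays. Scan dates or other batches are not given in the sources used here, so no batch was tested. The alternatives were repeated quantile normalization, equal array medians, the mean of a gene's probe sets, all probe sets as separate features, bright genes only, an intensity trend with robust moderation, the replicate number as a block, and leaving out each array.

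The members and gene lists were chosen with earlier results of these data known. The text names ESR2, the TIMPs, all called members, the 4 brightest members of each family, 7 well-known members, the 3 uncalled members nearest to the threshold, and up to 3 genes per direction and list. MMP3, MMP7, MMP10, MMP20, ADAM8, ADAMTS18, PLAU, PLAUR, SDC4, ETS2, ERBB2, FBLN1, the other markers, neighbours, overlapping genes and uncalled list genes were added after their values were seen. The GC box, the single estrogen response arm and the neighbour comparison were also added then. Promoters and gene order are from RefSeq (GRCh38.p14).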

Additional observations from a re-analysis of the deposited data

How the results depend on the processing

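ADAM23 (adjusted p from 6.2e-06 to 0.00054) and MMP15 (0.0023 to 0.038) were called in all 13 alternatives. With all probe sets tested as separate features, 682 genes rose and 478 fell, and the members that rose numbered 1 and those that fell 1, as MMP13 (adjusted p = 0.14), ADAM15 (0.10) and TIMP3 (0.067) were no longer called. That setting adjusts over 134748 features. TIMP3 was called in the other 12 alternatives. Leaving out 1 array at a time gave 1008 to 1378 genes that rose and 660 to 925 that fell, 2 to 4 members that rose and 1 to 2 that fell. The cause was not tested beyond the smaller number of arrays. With the replicate number as a block, 1370 genes rose and 933 fell, and 3 members rose and 2 fell, the same 5 genes. The block lowered the count of transcription factors that fell to 2. An intensity trend with robust moderation gave 4 members that rose, ADAM10 added. Among the gene lists, all probe sets tested left 1 activator, 1 transcription factor and 0 shed proteins that rose, and 3 activators, 1 matrix gene, 0 inhibitors and 0 transcription factors that fell. The mean of a gene's probe sets left 1 transcription factor that rose. Bright genes alone and robust moderation with an intensity trend each gave 2 shed proteins that rose. Bright genes alone, a smaller set to adjust over, gave 2163 genes that rose and 1355 that fell. Repeated quantile normalization gave 1348 genes that rose and 1209 that fell, with the same 5 members called. Under it the ADAM17 difference was 0.09 in place of 0.18, not called in either.

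Among the 23 members followed singly through the alternatives, the sign turned in 7 uncalled ones, and it turned in ESR2. The other members were not followed singly. Leaving out 1 array moved MMP1 between -0.16 and 0.12 (-0.0094 without knockout array 2), MMP27 between -0.12 and 0.035, ADAMTS19 between -0.20 and 0.043, TIMP4 between -0.18 and 0.16 and ESR2 between -0.075 and 0.16. MMP9 ran from -0.22 to 0.070 (0.038 and 0.0012 without knockout arrays 1 and 3), ADAMTS3 from -0.049 to 0.16 (-0.023 without control array 3) and ADAMTS17 from -0.087 to 0.12 (0.057 and 0.0081 without control arrays 1 and 2). ADAMTS17 was 0.0073 with equal array medians. These differences have no settled direction. With 3 arrays per group and no detection calls, the 45 dim members can show neither presence nor absence of RNA.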

Other observations

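Genes named after these families but outside the rule for members were also read. Of 24 such genes (pseudogenes with a suffix, ADAMTS-like genes, ADAMDEC1 and antisense or opposite-strand genes), 1 rose and 0 fell, and 3 had an unadjusted p under 0.05 in limma. The share called was 4.17%, against 8.01% of all genes, and 21 of the 24 were dim. The gene that rose, MMP24OS, had log2 signals of 5.30, 5.43 and 5.23 in knockout cells, against 4.61, 4.75 and 4.87 in control cells, a difference of 0.58 with no overlap between the groups. MMP24-AS1, at the same locus by its name, read 5.13, 6.16 and 6.62 in knockout cells and 6.39, 6.45 and 6.27 in control cells. Knockout array 1 lay well below the other 5 arrays for this gene, and its difference of -0.40 was not called.

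Of the genes that overlap a bright ADAM in RefSeq, TM2D2 overlaps ADAM9 and differed by 0.36 (13.27 in knockout and 12.91 in control cells, limma adjusted p = 0.14), while ADAM9 itself differed by -0.08. SYN1 and SYN2, which overlap TIMP1 and TIMP4, were dim and differed by -0.03 and 0.20, not called.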
